A study of Mus musculus with 24 samples.

Results

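The guanylate-binding proteins (GBPs) and the immunity-related GTPases (IRGs) are 2 families of interferon-inducible GTPases. Their levels were followed here in dorsal root ganglia of mice labelled C57, CAST and DBA. The members are the 10 rows of the deposited FPKM table, which lists 38215 genes, whose symbol is Gbp2, Gbp3, Gbp4, Gbp5, Gbp6, Gbp7, Gbp9, Igtp, Irgm1 or Irgm2. They were chosen by name and all 10 were found in each of the 24 libraries. FPKM stands for fragments per kilobase of gene model, scaled to the number of mapped reads.

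Dorsal root ganglia hold the cell bodies of sensory neurons, together with satellite glia, Schwann cells, vessels and macrophages. In each strain, labelled Naive or Ax5d, ganglia came from uninjured mice or from mice whose sciatic nerve, which carries axons of these neurons, had been crushed 5 days earlier. There are 4 libraries in each of the 6 groups, which the series design calls biological replicates. The protocol text speaks of sham surgery while the sample names say naive, so it is not settled whether the controls were operated. All animals are otherwise untreated as far as the labels say, the title names CAST/Ei as the strain of interest for axon regeneration, and other strains were not analysed here.

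GBPs belong to the dynamin superfamily. They are made in many cell types after exposure to interferon, gather on vacuoles and membranes that hold microbes, and promote the opening of those compartments and the activation of inflammasomes. IRGs are smaller GTPases of 2 kinds. Effector IRGs, such as Iigp1 and the Tgtp proteins, coat the vacuoles of parasites and bacteria, while the regulatory IRGs Irgm1, Irgm2 and Igtp (also called Irgm3) sit on the cell's own membranes and hold the effectors inactive there. Interferon gamma drives these genes through promoter elements called GAS and through IRF1, while type I interferon acts through elements called ISRE.

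The promoters of members are shown first because these 2 kinds of element were searched for in them. RefSeq promoter sequences of build GRCm38.p6 were matched by symbol for 7 of the 10 members; Gbp4, Gbp6 and Gbp9 had no entry. The 250 bases before each start site were searched on both strands for 2 strings, GAAA followed by any 2 bases and GAAA (ISRE-like), and TTCNNNGAA (GAS-like). The last 110 bases before the start are printed 5' to 3' on the gene's strand, with each match in capitals. The first 3 belong to the GBP cluster of chromosome 3 and lie at chr3:142620553-142620662, chr3:142559934-142560043 and chr3:142530226-142530335, all on the plus strand.
Gbp2: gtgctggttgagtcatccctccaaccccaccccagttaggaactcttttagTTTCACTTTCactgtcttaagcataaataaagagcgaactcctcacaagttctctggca
Gbp3: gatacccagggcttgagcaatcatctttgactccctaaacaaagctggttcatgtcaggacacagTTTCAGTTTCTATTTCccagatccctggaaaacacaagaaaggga
Gbp7: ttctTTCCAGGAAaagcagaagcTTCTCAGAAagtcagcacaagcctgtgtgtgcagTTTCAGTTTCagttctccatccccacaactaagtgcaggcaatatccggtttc

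The 3 regulatory IRGs follow. Irgm1 lies on the minus strand at chr11:48871421-48871530, and Igtp and Irgm2 on the plus strand at chr11:58199446-58199555 and chr11:58214867-58214976.
Irgm1: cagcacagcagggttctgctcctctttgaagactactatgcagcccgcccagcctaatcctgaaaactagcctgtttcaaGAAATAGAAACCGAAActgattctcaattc
Igtp: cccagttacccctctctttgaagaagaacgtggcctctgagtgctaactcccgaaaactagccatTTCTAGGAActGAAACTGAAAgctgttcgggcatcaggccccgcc
Irgm2: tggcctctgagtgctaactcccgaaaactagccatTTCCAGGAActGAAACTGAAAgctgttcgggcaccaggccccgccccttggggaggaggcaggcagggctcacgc

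All 7 genes held an ISRE-like match within 250 bases of a start site, a string found in 2.98% of the 32851 promoters in the table. Gbp3 has 2 listed start sites, and the match lies before the one printed. The long capital runs in Gbp3 and Irgm1 are each 2 overlapping matches. GAS-like matches stood before Gbp5, Gbp7, Igtp and Irgm2, against 7.02% of all promoters, and these 4 genes held both strings, against 0.332% of all promoters. In Gbp5, which is not printed, the ISRE-like match begins 165 bases before the start and the GAS-like matches begin 245 and 52 bases before it. A match says only that these letters are present in the reference build, and the promoter sequences of the single strains were not examined.

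The Igtp and Irgm2 promoters are near copies of each other. Shifted by 30 bases, 78 of 80 overlapping bases are identical, and the longest identical run is 38 bases. Among the other 20 pairs of 7 such stretches, the best alignment without gaps over at least 50 bases reached 35.1% to 50.7% identity. In Igtp and Irgm2 the GAS-like match stands just upstream of the ISRE-like match, and the same order at a wider spacing is seen in Gbp7.

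**Figure D1:**
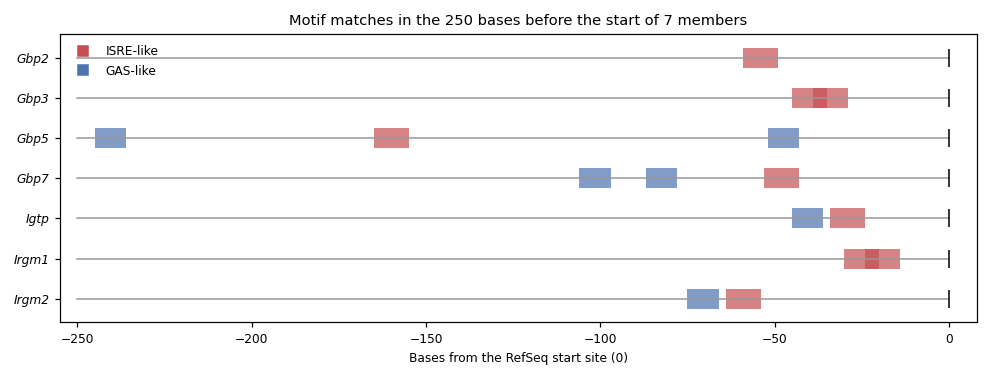
Positions of ISRE-like (red) and GAS-like (blue) matches in the 250 bases before the RefSeq start site (0, black tick) of 7 members; the horizontal axis is in bases. Every match except 2 of Gbp5 lies within 110 bases of the start, and darker parts mark overlapping matches.

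FPKM levels are compared here between libraries for 1 gene and not between genes, for a reason of length given further on. Tests were made with limma on log2(FPKM + 1) over the 27047 genes that passed a filter on low values, which all 10 members did, with Benjamini-Hochberg adjustment over all genes and a threshold of 0.05. With FPKM values mostly under 2, a difference on the log2(FPKM + 1) scale is smaller than the log2 of the fold, so the fold between group means is given beside it. In whole ganglia, more cells of a type and more RNA per cell cannot be told apart. Reads of all strains were aligned to the same reference genome, so in comparisons between strains a difference in level and a difference in alignment cannot be told apart.

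Individual crush libraries differed widely in these genes. In crushed DBA ganglia replicate 3 was the highest of the 4 libraries for all 10 members, at 2.27 to 5.82 times the mean of the other 3. In crushed C57 ganglia replicate 4 was the highest for all 10, at 1.72 to 3.32 times the mean of the other 3. In crushed CAST ganglia replicate 2 was the highest for all 10, with a median of 1.75 times, followed by replicate 1, and replicates 3 and 4 were lower. Over all 27047 genes, DBA replicate 3 was the highest of its group for 29.9% and reached 2 times the mean of the other 3 for 1.56%. For C57 replicate 4 these shares were 22.9% and 1.77%. The results that rest on these libraries are given with and without them, a choice made after seeing the values.

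The members rose after crush in CAST. All 10 were called higher, where 25.6% of all genes were called higher, and group means rose between 3.34-fold (Gbp7) and 10.9-fold (Gbp6), with a median of 5.68-fold. The median difference on the log2(FPKM + 1) scale was 0.66, against 0.00152 over all genes. In each of the 10 genes every crushed CAST library lay above every naive CAST library, a separation that 25.0% of all genes showed.

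In DBA fewer calls were made. The crush means of the members were 2.01 to 4.88 times the naive means, 4 of 10 members were called higher (Gbp2, Gbp3, Igtp and Irgm2), where 26.4% of all genes were, and the median difference was 0.26 against 0.00132 over all genes. Every crushed DBA library lay above every naive DBA library for all 10, against 25.6% of all genes. Without replicate 3, the other 3 crushed DBA libraries were still 1.43 to 2.34 times the naive mean. The number called depended on the scale and on single libraries. It was 10 with log2(FPKM + 0.1) and 9 with voom on estimated reads. It was 2 without crushed replicate 3 or without any of the naive DBA replicates 1, 2, 3 and 4. The 26.4% belongs to the main fit, and the shares of all genes called under these other settings are not given here.

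In C57 no member was called, where 18.1% of all genes were called higher and 20.5% lower. None of the 10 had an unadjusted p under 0.05 by limma, and voom called 0. Mean changes ran from 1.07-fold (Gbp7) to 2.71-fold (Gbp2), and the median difference was 0.14 against -0.000233 over all genes. Naive and crushed C57 libraries overlapped for each member, while 16.0% of all genes were higher after crush without overlap. Without replicate 4 the other 3 crushed libraries were 0.909 to 1.71 times the naive mean, and without crushed DBA replicate 3 in the fit 1 member was called in C57.

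**Figure D2:**
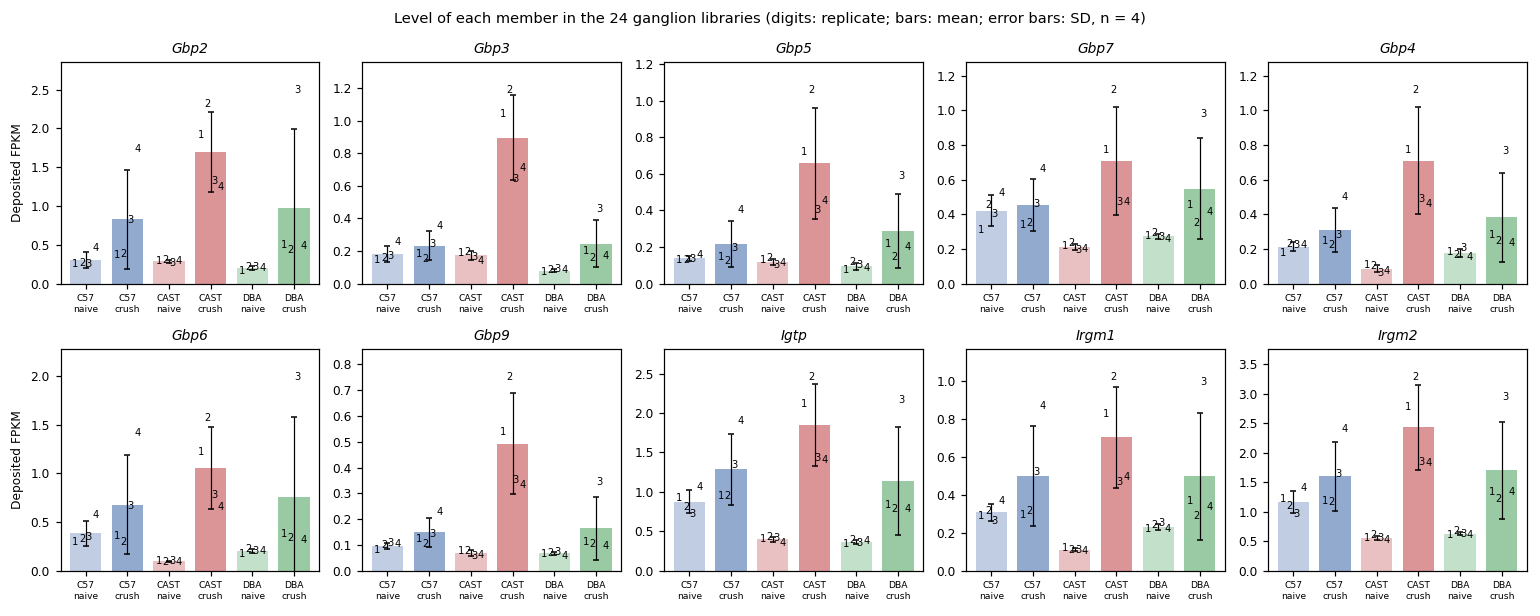
Deposited FPKM of each member (vertical axis, linear from 0, with its own range in each panel) in naive and crushed ganglia of C57 (blue), CAST (red) and DBA (green). Digits mark replicates, bars the mean and whiskers the SD of 4 libraries (cut at 0 where the SD exceeds the mean). In the crushed groups replicate 4 of C57, replicate 2 of CAST and replicate 3 of DBA are the highest in all 10 panels.

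The test of the strain difference asks whether the crush response itself was larger in 1 strain. Against C57, the response in CAST was larger for 6 of 10 members (Gbp3, Gbp4, Gbp5, Gbp9, Igtp and Irgm2), where 7.99% of all genes were called in that direction. Against DBA it was larger for Gbp3 and Gbp9, where 8.08% of all genes were. These names depend on the scale. Against C57, log2(CPM + 0.5) on reads estimated from transcript spans called all members but Gbp2. It added Gbp6 (adjusted p = 0.0169), Gbp7 (adjusted p = 0.0184) and Irgm1 (adjusted p = 0.0133). Against DBA, the same scale called Gbp4, Gbp9 and Irgm1 and not Gbp3, and voom called Gbp4 and Gbp9. The shares of all genes called on these scales are not given here. Between DBA and C57, 0 members were called and 0 had an unadjusted p under 0.05 by limma, voom called 0 as well, and 5.38% of all genes were called higher and 3.65% lower. The C57 and DBA comparisons with CAST share the CAST libraries.

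Leaving out libraries changed these counts. Without the highest crush library of each strain (C57 replicate 4, CAST replicate 2 and DBA replicate 3), the response in CAST was called larger than in C57 for 10 members, where 6.90% of all genes were, and larger than in DBA for 9, where 7.51% were. Without C57 replicate 4 and DBA replicate 3 only, the counts were also 10 and 9, where 7.02% and 7.63% of all genes were called. These libraries were picked for their member levels, so the refits describe how far the counts rest on them and are not independent tests. Leaving out DBA replicate 3 alone gave 9 and 9. With 3 other libraries left out together (replicate 3 of crushed C57, replicate 1 of naive C57 and replicate 3 of naive DBA), 3 members were called against C57.

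**Figure D3:**
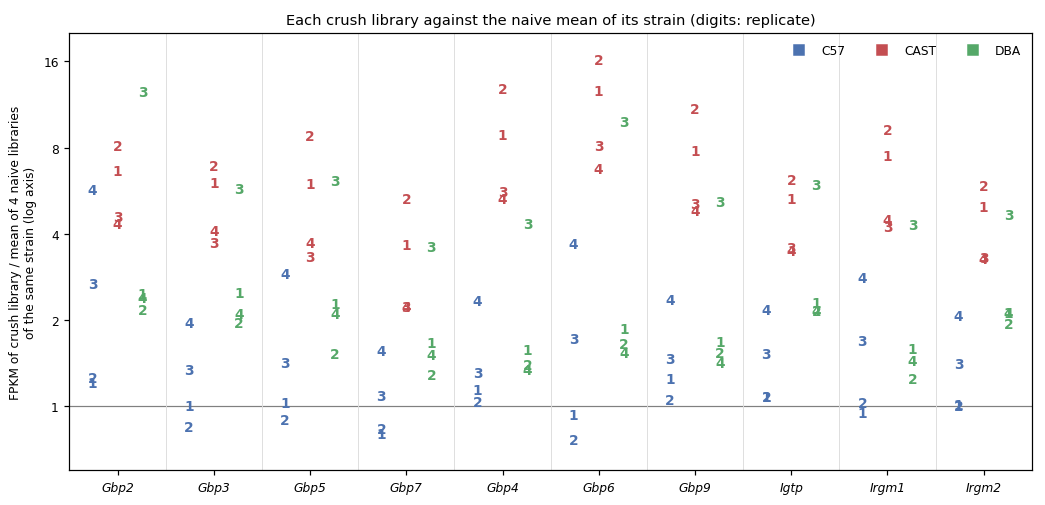
FPKM of each crushed library divided by the mean of the 4 naive libraries of the same strain (log axis; 1 means no difference) for each member; digits are replicates. Medians over the 10 members are 3.98 to 8.43 in the CAST libraries, 1.6 to 1.99 in DBA replicates 1, 2 and 4, 5.46 in DBA replicate 3, 1.02 to 1.44 in C57 replicates 1 to 3, and 2.34 in C57 replicate 4.

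Gbp2, Gbp3, Gbp5 and Gbp7 lie in the GBP cluster of mouse chromosome 3. Gbp2 (chr3:142620602-142638008, plus strand, GRCm38 as in GENCODE M21) encodes a GBP that carries a lipid anchor and loads onto vacuoles of pathogens. In CAST it was at 0.287, 0.307, 0.260 and 0.295 FPKM in naive replicates 1 to 4 and at 1.91, 2.32, 1.32 and 1.24 after crush. In DBA it was at 0.163, 0.212, 0.220 and 0.206 in naive and at 0.494, 0.434, 2.50 and 0.479 in crushed ganglia. In C57 it was at 0.25, 0.26, 0.257 and 0.456 in naive and at 0.368, 0.385, 0.819 and 1.74 in crushed ganglia. The CAST libraries form 2 separate groups, DBA replicate 3 exceeds every CAST library, and C57 replicates 1 and 2 after crush lie below naive C57 replicate 4. The mean rose 5.92-fold in CAST (1.05 on the log2(FPKM + 1) scale, SE 0.233, adjusted p = 0.000842) and 4.88-fold in DBA (0.61, adjusted p = 0.0365). In C57 it was 2.71-fold (0.43, adjusted p = 0.162). The difference between the responses of CAST and C57 was 0.62 (SE 0.329, adjusted p = 0.265) and was not called; its p was the highest among the 10 members.

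Gbp3 (chr3:142560026-142573209, plus strand) encodes a GBP linked to inflammasome signalling in infected macrophages. Crushed CAST libraries were at 1.04, 1.19, 0.645 and 0.711 FPKM, and naive ones at 0.191, 0.196, 0.165 and 0.140. Crushed C57 libraries were at 0.181, 0.154, 0.243 and 0.354 and crushed DBA libraries at 0.199, 0.157, 0.460 and 0.169. The lowest crushed CAST library therefore lay above every library of the other 5 groups, also above DBA replicate 3. Naive C57 libraries ran from 0.148 to 0.253 and naive DBA libraries from 0.0704 to 0.0880, so that naive DBA lay below all other groups. The rise in CAST was 5.18-fold (0.68, SE 0.0785, adjusted p = 3.72e-07). It was larger than in C57 by 0.62 (SE 0.111, adjusted p = 0.000508) and larger than in DBA by 0.48 (SE 0.111, adjusted p = 0.00424). On the log2(CPM + 0.5) scale the difference from DBA was 0.90 and was not called (adjusted p = 0.177). In DBA the mean rose 3.07-fold from its low naive level (0.20, adjusted p = 0.0402).

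Gbp5 and Gbp7 complete the chromosome 3 members. Gbp5 (chr3:142493978-142522344, plus strand) encodes a lipid-anchored GBP that promotes inflammasome assembly. After crush its values were 0.719, 1.06, 0.402 and 0.450 FPKM in CAST, against 0.102 to 0.140 in naive CAST. DBA replicate 3 at 0.587 lay among the CAST values, and the other crushed DBA libraries were between 0.146 and 0.219. The CAST mean rose 5.44-fold (0.55, SE 0.101, adjusted p = 0.000139), and the response exceeded that of C57 by 0.46 (adjusted p = 0.0390) but was not called against DBA (0.33, adjusted p = 0.148).

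Gbp7 (chr3:142530342-142550149, plus strand) encodes a GBP that joins the defence of parasite vacuoles. It showed the smallest fold of the 10 in all 3 strains: 3.34 in CAST (0.48, adjusted p = 0.0012), 2.01 in DBA (0.27, adjusted p = 0.051) and 1.07 in C57 (0.03, adjusted p = 0.88). Naive C57 libraries were at 0.309, 0.454, 0.405 and 0.521 FPKM and all lay above naive CAST at 0.197 to 0.233. Crushed CAST libraries ran from 0.470 to 1.12, and C57 replicate 4 (0.660) and DBA replicate 3 (0.981) lay within that range.

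The chromosome 5 cluster holds Gbp4, Gbp6 and Gbp9. Gbp4 (chr5:105115767-105139586, minus strand) and Gbp9 (chr5:105077630-105139539, minus strand) overlap each other, and Gbp6 (chr5:105270702-105293698, minus strand) lies beside near copies. Their folds in CAST, 7.15 to 10.9, were the highest among the 10 members, and none of the 3 was called in DBA or C57.

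Gbp6 was at 0.102, 0.0917, 0.103 and 0.0908 FPKM in naive CAST and at 1.22, 1.57, 0.782 and 0.650 after crush. In C57 naive libraries it was at 0.295, 0.326, 0.343 and 0.570, and in crushed ones at 0.357, 0.292, 0.660 and 1.41. Crushed DBA libraries were at 0.378, 0.336, 1.99 and 0.312, against 0.177 to 0.227 in naive DBA. Naive CAST was the lowest group, and DBA replicate 3 was the highest of the 24 libraries. The CAST mean rose 10.9-fold (0.88, SE 0.216, adjusted p = 0.00199). In DBA (0.45, adjusted p = 0.0946) and in C57 (0.24, adjusted p = 0.428) the change was not called. The response in CAST differed from that in C57 by 0.65 (adjusted p = 0.201) and from that in DBA by 0.44 (adjusted p = 0.411). Without the highest crush library of each strain these differences were 0.72 and 0.61. On the log2(CPM + 0.5) scale, with all libraries, the difference from C57 was 2.69 and was called (adjusted p = 0.0169). The difference from DBA was 1.91 on that scale and was not called (adjusted p = 0.0878).

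Gbp4 naive libraries were at 0.110, 0.101, 0.0635 and 0.0745 FPKM in CAST and rose to 0.774, 1.12, 0.487 and 0.460. Crushed C57 libraries reached 0.222 to 0.499 from 0.178 to 0.229, and crushed DBA libraries 0.237 to 0.767 from 0.154 to 0.208. The CAST rise was 8.15-fold (0.64, SE 0.106, adjusted p = 4.38e-05). It exceeded the response in C57 by 0.53 (adjusted p = 0.0223), and the difference from DBA was 0.42 (adjusted p = 0.0655).

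Gbp9 was at 0.0577 to 0.0782 FPKM in naive CAST. After crush it was at 0.537, 0.752, 0.350 and 0.332 in CAST, at 0.122, 0.103, 0.143 and 0.229 in C57 and at 0.112, 0.103, 0.346 and 0.0948 in DBA. All 4 crushed CAST libraries lay above all crushed C57 libraries, and DBA replicate 3 alone reached their lower end. The CAST rise was 7.15-fold (0.47, SE 0.0683, adjusted p = 7.69e-06), larger than in C57 by 0.41 (adjusted p = 0.00643) and than in DBA by 0.35 (adjusted p = 0.0153).

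The 3 regulatory IRGs lie on chromosome 11. Igtp (chr11:58199556-58207591, plus strand) and Irgm2 (chr11:58199618-58222782, plus strand) overlap, and Irgm1 (chr11:48861968-48871683, minus strand) lies apart from them. Igtp and Irgm2 were the members that rose in DBA with the smallest p.

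Igtp was at 0.397, 0.429, 0.418 and 0.357 FPKM in naive CAST and at 2.11, 2.46, 1.43 and 1.40 after crush. In DBA it was at 0.336, 0.390, 0.354 and 0.373 in naive and at 0.833, 0.781, 2.16 and 0.783 in crushed ganglia. In C57 the naive libraries were at 0.925, 0.805, 0.717 and 1.06, as high as crushed DBA replicates 1, 2 and 4, and the crushed ones at 0.948, 0.950, 1.34 and 1.90. Naive C57 lay above both other naive groups without overlap. The rise was 4.62-fold in CAST (1.01, SE 0.158, adjusted p = 2.18e-05) and 3.13-fold in DBA (0.60, adjusted p = 0.00331). In C57 the change was 1.46-fold (0.27, adjusted p = 0.203). The response in CAST was larger than in C57 by 0.74 (adjusted p = 0.0323), and against DBA the difference was 0.41 (adjusted p = 0.274), or 0.51 without the highest crush library of each strain.

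Irgm2, which also restrains the caspase that senses bacterial lipopolysaccharide in the cytosol, followed Igtp closely. Across the 24 libraries the 2 genes correlated with r = 0.99 on the log2(FPKM + 1) scale, the highest of the 45 member pairs, and they share transcript sequence. Irgm2 was at 0.558, 0.601, 0.562 and 0.524 FPKM in naive CAST and at 2.78, 3.29, 1.85 and 1.83 after crush. Crushed DBA libraries were at 1.33, 1.22, 2.94 and 1.33, from 0.600 to 0.672 in naive DBA. The rise was 4.34-fold in CAST (1.12, SE 0.166, adjusted p = 1.13e-05) and 2.71-fold in DBA (0.69, adjusted p = 0.00165). Naive C57 libraries were at 1.21, 1.10, 0.955 and 1.40 and crushed ones at 1.18, 1.17, 1.64 and 2.41, and the groups overlapped. The response in CAST exceeded that in C57 by 0.87 (SE 0.235, adjusted p = 0.0159), the largest such difference among the members.

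Irgm1, which is tied to autophagy and to the survival of interferon-exposed cells, rose 6.36-fold in CAST, from 0.103 to 0.119 FPKM up to 0.467 to 1.02 (0.60, SE 0.125, adjusted p = 0.000429). Naive C57 libraries were at 0.262 to 0.369 and naive DBA libraries at 0.219 to 0.25, all above naive CAST. The change in DBA was 2.14-fold (0.26, adjusted p = 0.0955) and in C57 1.62-fold (0.18, adjusted p = 0.28). Crushed means of the 3 strains were 0.702 in CAST, 0.498 in C57 and 0.496 in DBA, and their libraries overlapped. The response in CAST differed from that in C57 by 0.42 (adjusted p = 0.137) and from that in DBA by 0.35 (adjusted p = 0.225). On the log2(CPM + 0.5) scale both differences were called, at 1.83 (adjusted p = 0.0133) and 1.52 (adjusted p = 0.0364).

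Before injury the order of the strains was different. Naive C57 had the highest mean of the 3 naive groups for all 10 members. Naive CAST was the lowest for Gbp4, Gbp6, Gbp7, Irgm1 and Irgm2, and naive DBA for Gbp2, Gbp3, Gbp5, Gbp9 and Igtp. Against C57, naive CAST was called lower for Igtp (0.457-fold, adjusted p = 0.0375) and Irgm2 (0.481-fold, adjusted p = 0.027), where 19.9% of all genes were called lower. This count of 2 of 10 members is near that share. The naive CAST libraries lay below all naive C57 libraries for 7 members, against 18.5% of all genes. The 2 calls rest on few libraries: 0 remained without naive C57 replicate 1, naive C57 replicate 4 or naive CAST replicate 4, and 1 without naive C57 replicate 2 or naive CAST replicates 1, 2 or 3. With log2(FPKM + 0.1), which weights low values more, 6 were called, and the share of all genes called with it is not given here.

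Naive DBA lay below naive C57 without overlap for 9 of 10 members, where 10.9% of all genes did. On the log2(FPKM + 1) scale the difference was called for Igtp only (0.415-fold, adjusted p = 0.0449), where 10.2% of all genes were called lower. This count of 1 of 10 members is near that share. The call was lost without any of the naive C57, naive CAST or naive DBA libraries or crushed C57 replicate 3. With log2(FPKM + 0.1), 3 were called, again without the share of all genes. Between naive CAST and naive DBA, where 44.2% of all genes were called in either direction, limma called 0 members, 0 had an unadjusted p under 0.05, and voom called 1. Gbp2 and Gbp3 were higher in naive CAST than in naive DBA without overlap, Gbp4, Gbp6, Gbp7 and Irgm1 lower, against 25.2% and 22.3% of all genes.

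After crush, CAST had the highest mean for all 10 members. Gbp2, Gbp3, Gbp4, Gbp5 and Gbp9 were called higher in crushed CAST than in crushed C57, where 28.9% of all genes were, and Gbp3, Gbp4, Gbp5, Gbp9 and Igtp higher than in crushed DBA, where 26.6% were. Gbp3 differed most, at 3.85 times the C57 and 3.64 times the DBA mean. Without the highest crush library of each strain, 10 members were called in both comparisons, where 25.6% and 23.5% of all genes were. Without C57 replicate 4 and DBA replicate 3 only, the counts were also 10 and 10, where 27.2% and 25.2% were. With all libraries kept, crushed CAST lay above crushed C57 without overlap for 2 members (Gbp3 and Gbp9) and above crushed DBA for 1 (Gbp3). The shares of all genes for these counts are not given here. Without C57 replicate 4 and DBA replicate 3, crushed CAST lay above crushed C57 for 8 members, all but Gbp6 and Irgm1. It then lay above crushed DBA for all 10, and the shares of all genes were 27.7% and 27.5%. Those libraries were picked as the highest of their groups for the members, so leaving them out can only raise such counts. The number called against C57 was 8 without either of those libraries alone. Against DBA it was 10 without DBA replicate 3, and 3 without crushed CAST replicate 1 or 2 or crushed DBA replicate 1, 2 or 4. Crushed DBA means were 0.886 to 1.33 times the crushed C57 means. There 32.5% of all genes were called in either direction. limma called 0 members, 0 had an unadjusted p under 0.05, and voom called 0.

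Other genes of both families were followed in a list of 18 rows, of which 17 were tested. In CAST 11 rose and 0 fell, in DBA 3 rose and in C57 3 rose, where 25.6%, 26.4% and 18.1% of all genes were called higher; the DBA and C57 counts are not above those shares. The median difference was 0.15, 0.07 and 0.05. Among the GBPs, Gbp10 rose 10.3-fold in CAST (0.51, adjusted p = 0.00673) and Gbp8 rose 6.94-fold (0.37, adjusted p = 4.35e-06). Both lie in the chromosome 5 cluster, and Gbp8 overlaps Gbp4. Of the effector IRGs, Ifi47 rose from 0.0254 to 0.0327 FPKM to between 0.188 and 0.392, or 9.29-fold (0.30, adjusted p = 0.000812), and Gm12250, Gm5431 and Tgtp1 rose 18.6-fold, 10.7-fold and 10.6-fold. Tgtp2 reached 10.4-fold with an adjusted p of 0.0593.

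Iigp1, the best-studied effector IRG, had a different pattern. In CAST it was at 0.000579 to 0.00144 FPKM in naive and 0.00104 to 0.00351 in crushed ganglia. In naive C57 it was at 0.101 to 0.143 and in naive DBA at 0.0696 to 0.0897. It was at 0.472 in crushed C57 replicate 4 and at 0.603 in crushed DBA replicate 3, against 0.105 to 0.239 and 0.0908 to 0.0989 in the other crushed libraries of those strains. All 8 CAST libraries lay far below all libraries of both other strains for this gene; here too a difference in level and one in alignment cannot be told apart. Irgq, a distant relative without known interferon control, was at 16.5 to 24 FPKM in all 24 libraries and rose in all 3 strains by 1.17-fold to 1.27-fold.

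The interferon pathway was followed in 19 rows from ligands to feedback inhibitors. The ligands were at the limit of detection. Ifng, which encodes interferon gamma, was listed at 0 in 11 of 12 naive and in 3 of 12 crushed libraries, with at most 4 estimated reads. Ifnb1, which encodes interferon beta, was listed at 0 in 8 of 12 naive and in 8 of 12 crushed libraries, with at most 4 estimated reads. Both were removed by the filter and not tested.

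Of the 17 pathway genes tested, 12 rose and 2 fell in CAST, 10 rose and 1 fell in DBA, and 5 rose and 1 fell in C57. Over all genes 25.6% were called higher in CAST, 26.4% in DBA and 18.1% in C57. The median difference over the list was 0.06 in CAST, 0.09 in DBA and 0.03 in C57. Of the 4 receptor chains, 2 were called higher in CAST, 2 in DBA and 1 in C57.

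Stat2 and Irf9, transcription factors of type I interferon signalling, rose 2.55-fold (0.90, adjusted p = 2.2e-07) and 2.46-fold (0.59, adjusted p = 1.23e-08) in CAST. Irf1, a factor that acts on GBP promoters, rose 1.82-fold in CAST (0.20, adjusted p = 0.00176) and 1.52-fold in DBA (0.14, adjusted p = 0.0232), and was 1.05-fold in C57 (0.01, adjusted p = 0.85). Usp18, an inhibitor of type I interferon signalling and a common readout of it, rose 23.5-fold in CAST, from 0.0415 to 0.0574 FPKM up to 0.688 to 1.5 (0.99, adjusted p = 5.69e-09). In C57 its change was 1.08-fold and in DBA 1.71-fold, neither called. Socs1, the inhibitor of Janus kinases, rose in all 3 strains: the fold was 4.10 in CAST, 3.90 in DBA and 1.98 in C57. Jak1 fell in CAST (-0.07, adjusted p = 0.0146) and rose in the other 2 strains.

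Targets of interferon gamma outside the 2 families were followed in 10 rows, of which 9 were tested. The shares of all genes called higher were 25.6% in CAST, 26.4% in DBA and 18.1% in C57. In CAST all 9 rose, with a median difference of 0.62. In DBA 5 rose, with a median of 0.16, and in C57 limma called 0, with a median of 0.07 and Cxcl9 at 5.64-fold (0.25, adjusted p = 0.107). Cxcl10 and Cxcl9 encode chemokines that attract activated T cells. In CAST Cxcl10 rose 15.6-fold (1.54, adjusted p = 2.93e-05) and Cxcl9 rose 26.1-fold (0.62, adjusted p = 0.000217), to 0.765, 0.766, 0.470 and 0.347 FPKM. Xaf1, an apoptosis regulator, rose 4.57-fold in CAST, and by 1.72-fold in DBA. Psmb8 (immunoproteasome) and Tap1 (peptide transport) rose 3.99-fold and 3.33-fold in CAST, and Serping1 (complement inhibitor) rose 1.86-fold.

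The libraries in which the members were highest were also high for some of these genes and not for others. In crushed DBA replicate 3, Cxcl9 was at 0.605 FPKM against 0.0257 to 0.0808 in the other 3 libraries, 10.8 times their mean. Among the other family genes it was the highest of its group for 15 of 17, with a median of 3.70 times, and Iigp1 reached 6.28 times. Nlrc5, a regulator of antigen presentation genes, reached 3.07 times, and Cxcl10 2.21 times. Other genes were closer to the rest of the group there: Irf1 reached 1.48 times, Xaf1 1.39 times, Usp18 1.34 times, Stat2 1.13 times and Irf9 1.09 times. None of the 17 pathway genes reached 2 times, against 10 of 10 members. Over all genes 1.56% did, so the count of 0 among the pathway genes is near that share. This library was the highest of its group for 11 of the 17 pathway genes (64.7%, against 29.9% of all genes), with a median of 1.09 times.

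In crushed C57 replicate 4 the chemokines were high too. Cxcl9 was at 0.583 FPKM against 0.109 to 0.222, or 3.80 times the mean of the other 3, and Cxcl10 was at 3.07 times. Irf1 was at 1.70 times, Usp18 at 1.57 times and Stat2 at 1.13 times. In crushed CAST, Usp18 was raised in all 4 libraries, while in crushed DBA replicate 3 it was at 0.168 FPKM, far below the lowest crushed CAST library at 0.688. These ratios describe libraries picked for high member levels, and no test is attached to them.

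**Figure D4:**
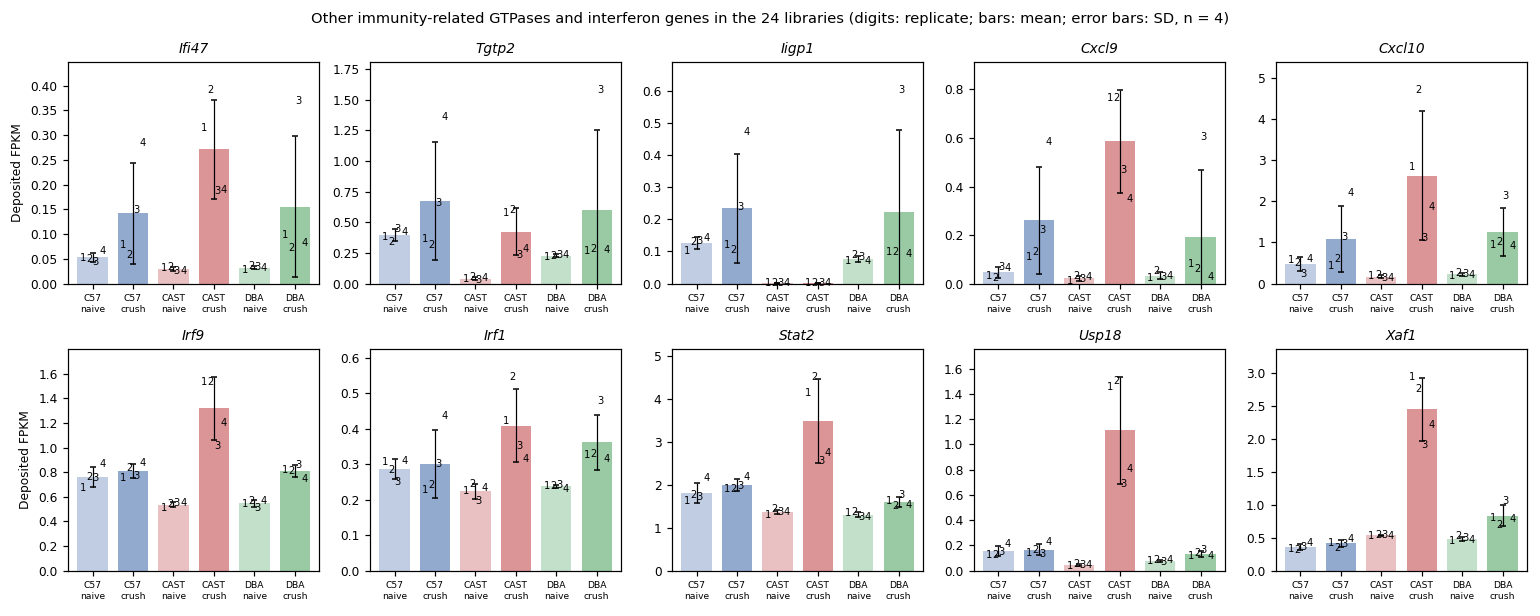
Deposited FPKM (linear axis from 0, own range per panel) of 3 effector IRGs and 7 interferon genes in naive and crushed ganglia; digits mark replicates, bars the mean and whiskers the SD of 4 libraries (cut at 0). Ifi47 and Cxcl9 are high in crushed DBA replicate 3, crushed C57 replicate 4 and the crushed CAST libraries; for Usp18 and Xaf1 the 4 crushed CAST libraries lie above all others, and Iigp1 is near 0 in all CAST libraries.

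Genes that carry GBPs and IRGs to their membranes or act with them were followed in 19 rows. They cover prenylation, the ATG8 conjugation machinery and ubiquitin adaptors. In CAST 8 rose and 7 fell, in DBA 6 rose and 7 fell, and in C57 5 rose and 5 fell. The medians were 0.02, 0.05 and -0.00. In the same order, 25.6%, 26.4% and 18.1% of all genes were called higher and 21.5%, 23.8% and 20.5% lower. Trim21 and Rnf213, ubiquitin ligases that are themselves interferon-inducible, rose 2.04-fold (0.35, adjusted p = 0.000139) and 3.23-fold (0.29, adjusted p = 0.000183) in CAST and were not called in DBA or C57. Map1lc3b, which encodes an ATG8 protein, rose in all 3 strains by 1.23-fold to 1.29-fold. Icmt, the methyltransferase that completes prenylated proteins, fell in all 3 strains, by 0.28 in CAST, 0.42 in DBA and 0.27 in C57 on the log2(FPKM + 1) scale.

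Inflammasome and pyroptosis genes act downstream of GBPs in infected cells. Of 10 tested, 9 rose in CAST, 7 in DBA and 5 in C57, where 25.6%, 26.4% and 18.1% of all genes were called higher. None fell in any strain, and the medians were 0.08, 0.05 and 0.03. Gsdmd, the pore-forming gasdermin, rose 2.70-fold in CAST (0.69, adjusted p = 1.47e-10), and the fold was 2.08 in DBA and 1.78 in C57. Its response in CAST was larger than in C57 by 0.37 (adjusted p = 0.00042) and than in DBA by 0.23 (adjusted p = 0.0195). Pycard, the adaptor ASC, rose in all 3 strains, with folds of 2.26 (CAST), 3.25 (DBA) and 2.54 (C57). Zbp1, a sensor of nucleic acids, rose 45.3-fold in CAST, from 0.00206 to 0.00803 FPKM up to 0.176 to 0.323 (0.31, adjusted p = 2.88e-07). Casp1 rose 1.38-fold in CAST (0.16, adjusted p = 0.00558) and was not called in DBA or C57.

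Markers of macrophages moved with injury. The summed FPKM of 10 macrophage markers ran from 3.29 to 5.46 over the naive libraries, and from 27.4 to 34.8 in crushed CAST, 24.3 to 27.1 in crushed DBA and 19.4 to 22.7 in crushed C57. Of these markers 9 were called higher in CAST, 10 in DBA and 10 in C57, where 25.6%, 26.4% and 18.1% of all genes were. The sums of the crushed groups were in the order CAST, DBA, C57, but single markers did not all follow it. Between crushed CAST and crushed C57, 6 of the 10 were called higher in CAST and 2 lower. The crush response of CAST was called larger than that of DBA for 4 markers and smaller for 1. Among single libraries, C57 replicate 4 was at 19.4, CAST replicate 2 at 27.4 and DBA replicate 3 at 26.1.

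For this and the other marker counts below, the shares of all genes called higher were 25.6% in CAST, 26.4% in DBA and 18.1% in C57. Of 10 markers of T and NK lymphocytes 8 were called higher in CAST, 4 in DBA and 2 in C57, with 1 lower in C57. The C57 count lies near its share, and the median differences were only 0.02, 0.01 and 0.01 at these low levels. Their summed FPKM ran from 0.0807 to 0.26 over the naive libraries. It ran from 0.363 to 0.663 in crushed CAST, was at 0.428 in crushed DBA replicate 3 against 0.233 to 0.238 in the other 3, and was at 0.255 in crushed C57 replicate 4 against 0.426 in replicate 1. Gzmb was at 0 in all 4 naive CAST libraries. The sum of 5 neutrophil markers in crushed DBA was 17.5, 5.02, 18.0 and 7.95 in replicates 1 to 4. It was 16.2 in crushed C57 replicate 4 against 6.85 to 9.14 in the other 3. In crushed CAST it was 10.3, 4.69, 5.87 and 5.11, with replicate 2 the lowest. Naive DBA replicate 3 was at 13.7. Of the neutrophil markers 2 were called higher in each strain. Of 5 fibroblast markers 5 were called higher in CAST, 5 in DBA and 4 in C57, with sums of 27.3 to 29.6, 34.0 to 38.3 and 17.4 to 22.6 in the crushed groups. Of 8 endothelial markers 5 were called higher in CAST, 5 in DBA and 0 in C57, with sums of 12.4 to 14.3, 10 to 12.8 and 8.17 to 12.7. The part of all these cells in the member levels was not tested. Markers of sensory neurons, summed over 8 genes, ran from 632 to 729 FPKM in naive and from 478 to 581 in crushed libraries, as the labelled tissue holds.

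Across the 24 libraries the members moved together. Pearson's r between pairs of members on the log2(FPKM + 1) scale ran from 0.775 (Gbp3 with Gbp6) to 0.99, with a median of 0.932 over 45 pairs. After the group means were taken out, it ran from 0.838 to 0.995, with a median of 0.944. These values are a description: the libraries share depth and strain, and some genes share reads. Crushed C57 replicate 4, CAST replicate 2 and DBA replicate 3 were each the highest of their group for all 10 members. How far r rests on these libraries was not tested. Outside the listed genes of both families, the genes most like the mean of the members were Gm12185 (0.974), Nlrc5 (0.973), Cxcl10 (0.966), Cxcl9 (0.963), Zbp1 (0.957) and Tap1 (0.951). Gm12185 overlaps Tgtp1 in the annotation, and whether it belongs to the IRG family itself was not examined. The gene most like Gbp2 was Ifi47 (0.99) and the one most like Irgm1 was Gbp6 (0.984).

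The length behind the FPKM values sets what can be compared. Library totals were recovered from low values, which are whole multiples of 1 read. For each family row a length was then fitted that makes its values in all libraries whole reads. Over all genes, genomic spans, introns included, fit better when the annotated transcripts are summed. Values worth 0.5 to 100 reads came out whole within 0.05 reads in 81.2% of cases with that sum and in 67.9% with the span of the gene. Among the members, the recovered length equals the summed transcript spans of GENCODE M21 only for Igtp (24004 bases, 3 transcripts) and Gbp2 (27358 bases, 2 transcripts). For Gbp4 it equals the span of the gene (23820 bases against a sum of 100763). For the other 7 it differs from the sum, as for Gbp7 (39489 against 36517) and Gbp9 (92142 against 128164). The length behind each value is thus known only in part, and no order of abundance among members is given. Depth was high: recovered library totals ran from 51.39 to 145.48 M reads, with a median of 107.1 M. The lowest estimated read number of any member in a library was 152, for Gbp4, and the highest 12761, for Irgm2. Among the members the fit of the length was weakest for Irgm2, with 17 libraries near whole reads, so its read numbers are approximate.

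Several rows can share reads. Of the 50-base words in the annotated transcripts of Gbp6, 70.7% also occur in transcripts of other genes, mainly the neighbouring copies Gm43302 (65.0%) and Gbp10 (45.9%). The share was 12.7% for Gbp7, 11.8% for Igtp, all with Irgm2, and 0.379% for Irgm1, the lowest. How such reads were assigned, and whether strand was used, is not given in the sources used here, so Gbp6 and Gbp10, Igtp and Irgm2, and Gbp4 and Gbp9 are not fully separate measurements.

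The labels of 2 rows were checked. The identifier of the row labelled Gbp5 belongs to Gbp2b in GENCODE M21, yet the recovered length of 25411 bases runs from the RefSeq start of Gbp5 to its annotated end, and the row labelled Gbp1 has the span of Gbp2b, 24333 bases. The identifier of the row labelled Gbp6 belongs to Gm43302, and the recovered length of 22996 bases is 1 base short of the annotated Gbp6 span. Both rows are called by their deposited symbols.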

How the data were processed

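RNA sequencing libraries of dorsal root ganglia were analysed from 24 samples in 6 groups of 4. Per the labels' protocols, total RNA was extracted with Trizol and sequenced by standard Illumina methods; STAR 2.3.0 and the build mm10 are named in the submitters' processing notes. For the counting tool, the annotation, strand and reads with several matches the entry is: not given in the sources used here. Values are FPKM as deposited by the authors, in 1 table and in single files with identical values.

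The 10 members and the gene lists were chosen with earlier results of these data known. Read numbers were estimated from the FPKM steps. Genes with at least 10 estimated reads in 4 libraries, or 0.1 FPKM in 4 libraries where no span was found, were kept (27047 of 38215). limma 3.58.1 with trend and robust variance in R 4.3.3 was fitted on log2(FPKM + 1), with the 6 group means over all 24 libraries, two-sided, and Benjamini-Hochberg adjustment within each of 12 comparisons. The fit was tested on simulated data. All members are named; of each list at most 6 genes are, those called with the largest change in CAST, plus Ifng and Irf1; 1 gene that the rule names is not reported here. Ifnb1, Jak1, Tgtp2, Iigp1, Irgq, Nlrc5 and the genes named as ratios in single libraries were chosen after their values were seen. Alternatives were another pseudocount (0.1), no filter, upper-quartile scaling, log2(CPM + 0.5) and voom on estimated reads (under 2 lengths), only the groups compared, a replicate block and left-out libraries. Promoters came from RefSeq (GRCm38.p6), gene models from GENCODE M21. FPKM intervals for counting error were not computed, and p-values measure the spread between libraries.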

Additional observations from a re-analysis of the deposited data

Results flagged for a closer look

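In 12 of the 60 sets of 4 libraries (10 members in 6 groups), the highest or lowest library lay farther from the others than Dixon's 95% limit for 4 values, where chance gives about 1 in 20. Of these, 10 were crushed DBA replicate 3, which was high for every member. It was at 2.50 FPKM for Gbp2, 0.460 for Gbp3, 0.587 for Gbp5, 0.981 for Gbp7 and 0.767 for Gbp4. It was at 1.99 FPKM for Gbp6, 0.346 for Gbp9, 2.16 for Igtp, 0.993 for Irgm1 and 2.94 for Irgm2. The sets are not independent, since the 10 genes move together. The other 2 sets were Gbp2 in naive C57, where replicate 4 was high at 0.456 FPKM, and Gbp4 in naive C57, where replicate 1 was low at 0.178 FPKM.

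The crush response differed between strains by the limma test of the difference for 8 values, all larger in CAST on the log2(FPKM + 1) scale. Against C57 the difference was 0.62 for Gbp3, 0.46 for Gbp5, 0.53 for Gbp4, 0.41 for Gbp9, 0.74 for Igtp and 0.87 for Irgm2. Against DBA it was 0.48 for Gbp3 and 0.35 for Gbp9.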

How the results depend on the processing

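No called member value changed sign under any alternative, and 4120 of 4440 member values kept their side of the threshold, while 215 passed it and 105 lost it. The 10 calls after crush in CAST stayed 10 under all 13 alternatives and with each library left out (10 to 10). The count of 0 in C57 stayed 0 under the 13 alternatives and was 0 to 1 with each library left out. Differences between crushed DBA and C57 ganglia, and between their responses, stayed at 0 throughout.

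Crush in DBA, with 4 called, gave 10 with a pseudocount of 0.1 and with log2(CPM + 0.5) under either length, 9 and 8 with voom under the gene span and the transcript spans, and 2 without a filter, with only the groups compared, and without 3 libraries together (crushed C57 replicate 3, and naive C57 replicate 1 with naive DBA replicate 3). With each library left out it ran from 2 to 6. The difference of response between CAST and C57, with 6, ran from 4 to 9 with each library left out, fell to 3 without those 3 libraries and rose to 10 without crushed C57 replicate 4 and crushed DBA replicate 3, and to 10 without the highest crush library of each strain (those 2 and CAST replicate 2), choices made after seeing the data. Between CAST and DBA it was 2 to 9, and 9 under both choices.

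In naive ganglia, CAST against C57 (2 called) gave 6 with the pseudocount of 0.1, log2(CPM + 0.5) and voom, 7 with only the groups compared, 5 without the 2 high libraries, 6 without the highest of each strain, 1 without a filter and 0 without the 3 libraries, and 0 to 3 with each library left out. CAST against DBA (0 called) gave 1 with the pseudocount of 0.1 and with voom, 3 with log2(CPM + 0.5) 2 without the highest of each strain and 7 with only the groups compared, and 0 to 0 with each library left out. DBA against C57 (1 called) gave 3 without the highest of each strain and with the pseudocount of 0.1, log2(CPM + 0.5) and voom under transcript spans, 2 with voom under the gene span and without the 2 high libraries, 6 with only the groups compared, 0 without a filter and without the 3 libraries, and 0 to 2 with each library left out. In crushed ganglia, CAST against C57 (5) gave 3 with only the groups compared, 10 without the 2 high libraries or the highest of each strain, and 4 to 8 with each library left out; CAST against DBA (5) gave 2, 10 and 10, and 3 to 10.

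Replicate numbers did not pair libraries: same-numbered naive and crushed libraries had deviations correlated from -0.215 to 0.233. With the replicate block the count was 1 for naive CAST against C57 and 0 for naive DBA against C57, and the block moved no other count by more than 1.5 times. The cause of these changes was not tested. The shares of all genes called under each alternative are not given in this section, so its counts are not set against them. The ligand genes had at most 4 estimated reads in a library, while the lowest number for any member was 152. The reason for the low ligand reads was not tested.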
